A study of Mus musculus with 6 samples.

Results

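The genes described here are 50 genes of the cell cycle and of DNA replication, taken by name: 8 cyclins, 4 cyclin-dependent kinases (CDKs), 6 CDK inhibitors, 5 E2F factors and pocket proteins, 10 genes of origin licensing and the replicative helicase, 4 genes of the replication fork and nucleotide supply, 11 genes of the spindle checkpoint, the mitotic kinases and the spindle, and the proliferation markers Mki67 and Top2a. All 50 were among the 35293 genes with a name in the data. They were measured in bone marrow-derived mast cells (BMMCs), cells grown out of mouse bone marrow in mast cell growth factors. The marrow came from naive wild-type mice of the strains BALB/c and C57BL/6, both cultures received the cytokines IL-3, IL-9, TGF-β1 and stem cell factor, and no stimulation of these samples is named. RNA was sequenced on day 20 from 3 libraries of each strain, S9, S10 and S11 for BALB/c and S12, S13 and S14 for C57BL/6. The comparison asks how the expression of these genes differed between the strains. The study calls them biological replicates, but the labels do not say whether they came from separate mice, so that the p-values measure only the spread between these libraries. Cultured BMMCs stand for mast cells without a tissue around them, and they were not sorted by stage of the cycle, so that in such bulk RNA fewer dividing cells and less RNA per cell cannot be told apart.

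The cell cycle is driven by CDKs, which are active only when bound to a cyclin. D-type cyclins with Cdk4 or Cdk6, and then cyclin E with Cdk2, phosphorylate the pocket proteins and so release the E2F factors, which turn on the genes of DNA replication, while the INK4 inhibitors (Cdkn2a to Cdkn2d) block Cdk4 and Cdk6 and the Cip/Kip inhibitors (Cdkn1a and Cdkn1b) bind cyclin-CDK complexes more broadly. Cyclins A and B with Cdk1 then carry the cell into mitosis. Mast cells are long-lived tissue cells, but their precursors divide in culture as long as IL-3 or stem cell factor is present.

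Promoter sequence was looked up in RefSeq windows of assembly GRCm38.p6 that run from 250 bases before to 50 bases after a gene's start, and 39 of the 50 genes had one. Aurkb, Ccna2, Ccnd1, Ccnd2, Ccne2, Gins1, Gins2, Kif20a, Mcm4, Rb1 and Tpx2 had no window. The windows were searched on both strands for the letters of 4 motifs, none of which contains another, although neighbouring matches can share bases: an E2F motif (TTTCGCGC or TTTGGCGC), the cell cycle homology region or CHR (TTTGAA), the CCAAT box (CCAAT) and the GC box (GGGCGG). The E2F letters stood in 8 of the 39 windows (20.5%), those of Cdk1, E2f2, Rbl1, Mcm3, Mcm5, Mcm6, Mcm7 and Cdt1, beside 0.929% of the windows of 27025 genes. The CHR letters stood in 13 (33.3%, beside 20.2% of all), the CCAAT letters in 27 (69.2%, beside 41.1%) and the GC box in 33 (84.6%, beside 38.2%). A gene with more than 1 window was counted once if any of them held the letters. Such a match is a match of letters and not a measured binding site.

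6 windows are shown, those of 3 genes that were lower in C57BL/6 and that hold CHR or E2F letters (Cdk1, Plk1 and E2f8) and those of the 2 neighbouring inhibitor genes that were higher in C57BL/6 (Cdkn2a with its 2 start sites, and Cdkn2b). Capitals mark the E2F, CHR and CCAAT letters on either strand, and the GC box is not marked. The sequences are the RefSeq reference, read 5′ to 3′ on the strand of the gene, and the last 50 bases follow the start. Cdk1 lies at chr10:69352863-69353162 on the minus strand, Plk1 at chr7:122159185-122159484 on the plus strand, E2f8 at chr7:48881547-48881846 on the minus strand, the p19Arf start of Cdkn2a at chr4:89294570-89294869, its p16Ink4a start at chr4:89282143-89282442 and Cdkn2b at chr4:89310983-89311282, these 3 on the minus strand.
Cdk1: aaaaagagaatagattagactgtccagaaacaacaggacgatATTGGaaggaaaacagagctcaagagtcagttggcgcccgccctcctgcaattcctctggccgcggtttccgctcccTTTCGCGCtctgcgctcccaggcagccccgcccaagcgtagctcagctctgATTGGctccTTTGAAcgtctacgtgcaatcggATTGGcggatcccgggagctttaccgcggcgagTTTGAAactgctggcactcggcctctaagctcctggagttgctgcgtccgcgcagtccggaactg
Plk1: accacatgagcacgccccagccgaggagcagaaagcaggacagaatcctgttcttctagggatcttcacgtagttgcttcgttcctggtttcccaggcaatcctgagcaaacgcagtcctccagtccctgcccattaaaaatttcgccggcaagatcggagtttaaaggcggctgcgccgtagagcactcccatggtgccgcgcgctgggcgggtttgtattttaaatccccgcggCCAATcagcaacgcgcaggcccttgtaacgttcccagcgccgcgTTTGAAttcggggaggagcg
E2f8: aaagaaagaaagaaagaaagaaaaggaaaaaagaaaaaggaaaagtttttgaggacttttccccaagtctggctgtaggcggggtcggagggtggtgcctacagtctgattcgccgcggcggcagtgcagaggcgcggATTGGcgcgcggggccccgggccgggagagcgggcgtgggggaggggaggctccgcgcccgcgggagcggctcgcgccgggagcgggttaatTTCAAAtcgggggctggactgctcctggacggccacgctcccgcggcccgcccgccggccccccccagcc
Cdkn2a, p19Arf start: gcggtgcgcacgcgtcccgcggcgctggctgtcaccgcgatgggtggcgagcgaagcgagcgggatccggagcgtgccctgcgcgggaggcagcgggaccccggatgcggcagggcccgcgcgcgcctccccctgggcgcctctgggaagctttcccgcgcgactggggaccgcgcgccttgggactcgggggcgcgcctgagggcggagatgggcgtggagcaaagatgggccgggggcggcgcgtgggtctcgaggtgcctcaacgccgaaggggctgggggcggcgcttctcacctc
Cdkn2a, p16Ink4a start: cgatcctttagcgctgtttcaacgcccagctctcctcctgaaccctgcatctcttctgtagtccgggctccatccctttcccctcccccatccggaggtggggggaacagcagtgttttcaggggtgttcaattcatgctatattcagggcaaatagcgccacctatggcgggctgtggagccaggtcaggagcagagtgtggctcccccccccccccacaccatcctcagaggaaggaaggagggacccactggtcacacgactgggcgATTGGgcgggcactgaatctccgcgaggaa
Cdkn2b: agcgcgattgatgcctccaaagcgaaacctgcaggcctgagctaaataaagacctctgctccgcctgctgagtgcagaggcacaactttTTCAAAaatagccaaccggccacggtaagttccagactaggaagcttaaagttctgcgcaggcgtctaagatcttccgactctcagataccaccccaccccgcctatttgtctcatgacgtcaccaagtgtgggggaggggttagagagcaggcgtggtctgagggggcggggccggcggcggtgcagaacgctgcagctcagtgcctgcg

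Of the windows shown, Cdk1 held 1 E2F, 2 CHR and 3 CCAAT matches, while Plk1 and E2f8 held 1 CHR and 1 CCAAT match each. The p19Arf start of Cdkn2a held none of these 3 motifs, the p16Ink4a start held 1 CCAAT box and Cdkn2b held 1 CHR match. All 6 windows held GC boxes, from 1 to 3 each.

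Between 28271211 and 37098659 reads per library were assigned to genes, and 12458 genes passed the filter on low counts, among them all 50 cell cycle genes. Mast cell markers were high in every library: Cpa3, Fcer1a, Il1rl1, Kit and Gata2 had a mean of at least 1548 CPM (reads of a gene scaled to a fixed library total) in each strain, and of the 10 markers 5 were higher and 2 lower in C57BL/6 (50% and 20%, beside 27.0% and 25.9% of all genes tested). Their summed level was 30766 to 33665 CPM in BALB/c, against 33774 to 35914 CPM in C57BL/6, of which the tryptase Tpsb2 took 1032 and 5167 CPM in the strain means. In TPM the sums overlapped (35433 to 39366 and 34883 to 38151). Hdc, the enzyme that makes histamine, was low in both strains (2.35 and 5.34 CPM). Eosinophil and neutrophil markers were near 0, with summed levels of at most 0.961 and 1.55 CPM in any library. T or NK cell markers were low, with sums of 4.87 to 5.81 CPM in both strains. In these lists S100a8, S100a9, Epx, Cd3e and Cd3d were at 0.

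Most of the cell cycle and replication genes were lower in C57BL/6 BMMCs, while the genes that were higher were D-type cyclins, Cdk6 and 3 of the 6 CDK inhibitors. Of the 50 genes, 41 were lower in C57BL/6 at an adjusted p under 0.05 (82%), where 25.9% of all genes tested were lower, and 7 were higher (14%), where 27.0% of all were higher (quasi-likelihood test of edgeR, p-values adjusted by Benjamini-Hochberg over 12458 genes). The 7 genes were Ccnd1, Ccnd2, Ccnd3, Cdk6, Cdkn1a, Cdkn2a and Cdkn2b, of which Ccnd3 was not higher on the TPM scale. Ccnd1 passed the filter on low counts only through the C57BL/6 libraries. Its log2 fold change ran from 0.19 to 6.74 over the settings tried, so that its place in these counts carries little weight. Mcm6 and Pcna did not pass the test. The decreases were modest. None of the 50 genes fell by more than 2-fold at that adjusted p, by edgeR, by edgeR at an unadjusted p under 0.05 or by DESeq2, where 5.54% of all genes tested did (3 or 4 fell with plain library sizes or on the TPM scale), and 4 rose by more than 2-fold (Ccnd1, Ccnd2, Cdkn2a and Cdkn2b), where 7.73% of all did. The median log2 fold change of the 50 genes, C57BL/6 over BALB/c, was -0.50, beside -0.01 over all genes tested. In 42 genes the CPM of every C57BL/6 library lay below that of every BALB/c library (30.8% of all genes did so), in 7 it lay above (31.1% of all), and only in Mcm6 did the strains overlap. With plain library sizes and on the TPM scale, in place of library sizes corrected by TMM factors, the median of all genes lay lower, between -0.15 and -0.18 on the log2 scale, and the distance between the median of the 50 genes and that of all genes stayed between -0.47 and -0.51 under each of the 19 alternatives.

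**Figure D1:**
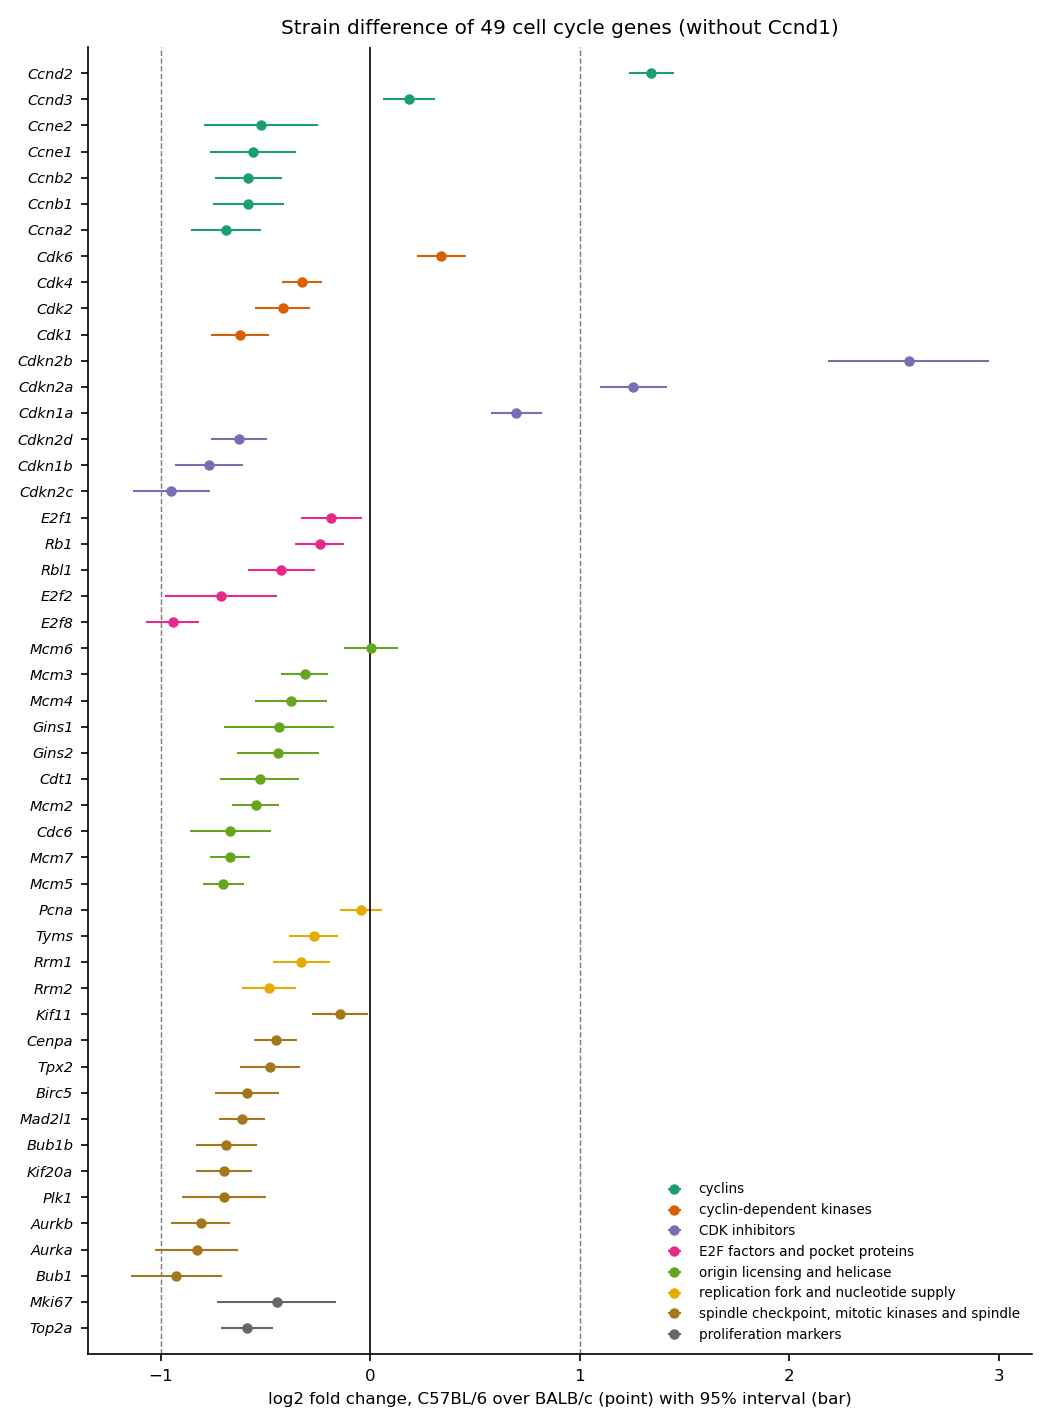
Log2 fold change of each gene, C57BL/6 over BALB/c, with its 95% interval (bar), ordered by role and, within a role, by value; dashed lines mark a 2-fold change. Most points lie between -1 and 0, Ccnd2, Cdkn2a and Cdkn2b lie to the right of 1, and Ccnd1, which had 1 read in all BALB/c libraries, is left out.

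Among the cyclins, the D types, which act at entry into the cycle, were higher in C57BL/6 (Ccnd3 in CPM but not in TPM, Ccnd1 at very few reads), and the E, A and B types were lower (Ccne2 not over curated transcripts alone). Ccnd2 (chr6:127102125-127129156, minus strand, in GRCm39) changed most of the abundant ones. It had 46.6, 43.2 and 44.1 TPM (a share of all transcripts, corrected for transcript length) in S9, S10 and S11 and 102, 99.5 and 99.7 TPM in S12, S13 and S14. The strains did not overlap, and each was uniform. The fitted difference was 1.34 ± 0.04 on the log2 scale (SE, n = 3 per strain, edgeR's adjusted p = 1.37e-08), a 2.54-fold higher level in C57BL/6.

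Ccnd3 was the most abundant of the 8 cyclins. Its TPM was 214, 232 and 211 in S9, S10 and S11, against 220, 212 and 226 in S12, S13 and S14, levels that overlapped. In CPM it was 257, 282 and 261 against 298, 299 and 312, which did not overlap, and the fitted difference of 0.18 ± 0.04 (log2, SE; edgeR's adjusted p = 0.0076) disappeared on the TPM scale (-0.00026, adjusted p = 0.998 by limma on log2(TPM + 1)). Ccnd1 was barely expressed. It had 1 read in the 3 BALB/c libraries together and 38 reads in the 3 C57BL/6 libraries, a ratio of 39.9 with a counting interval of 6.75 to 1619, and its TPM stayed at or below 0.179. The summed TPM of the 3 D-type cyclins was 263.9 ± 10.4 in BALB/c, against 319.5 ± 7.28 in C57BL/6 (SD, n = 3), and Ccnd2 stood at 0.204 ± 0.0165 of the Ccnd3 level in BALB/c and at 0.458 ± 0.0145 in C57BL/6.

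Ccne1 and Ccne2, the partners of Cdk2 at the start of S phase, fell by 0.56 and 0.52 on the log2 scale (SE 0.07 and 0.10), but over curated transcripts alone the difference of Ccne2 was 0.26 (adjusted p = 0.185). Ccna2, the cyclin of S phase and G2, was at 84.5, 73.7 and 76.7 TPM in BALB/c and at 43.7, 39.2 and 46.0 TPM in C57BL/6. Ccnb1 and Ccnb2, the mitotic cyclins, fell by 0.58 and 0.58 (SE 0.06 each), and Ccna2 fell by 0.69 (SE 0.06). In each of these 3 genes the highest C57BL/6 library lay below the lowest BALB/c library.

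Of the 4 kinases, 1 was higher in C57BL/6 and 3 were lower. Cdk6, a partner of the D cyclins, was higher in C57BL/6 by 0.34 ± 0.04 (log2, SE), while Cdk4, the other partner and the most abundant of the 4 kinases, fell by 0.33 (SE 0.03), Cdk2 by 0.42 (SE 0.05) and the mitotic kinase Cdk1 by 0.62 (SE 0.05). All 4 passed edgeR's test, with adjusted p-values from 8.71e-06 (Cdk1) to 0.000142 (Cdk6). On log2(TPM + 1), Cdk6 was at 0.16 with an adjusted p of 0.0519 by limma. Cdk4 was at 262, 260 and 260 TPM in BALB/c and at 186, 178 and 188 TPM in C57BL/6. Cdk6 was at 260, 251 and 238 CPM against 314, 312 and 321 CPM. The ratio of the Cdk6 to the Cdk4 level in TPM was 0.119 ± 0.00671 in BALB/c, against 0.188 ± 0.00154 in C57BL/6 (SD, n = 3). Cdk4 remained the more abundant kinase in every library.

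Of the 6 inhibitors, 3 were higher and 3 lower in C57BL/6, and apart from the barely expressed Ccnd1 they held the largest increase of the 50 genes. Cdkn2b (p15Ink4b, an inhibitor of Cdk4 and Cdk6), at chr4:89223204-89229276 in GRCm39, was at 3.12, 2.55 and 3.54 TPM in BALB/c and at 14.5, 16.6 and 17.6 TPM in C57BL/6. The strains did not overlap, and the gap between them was wider than the spread within either. The fitted difference was 2.57 ± 0.14 (log2, SE, 95% interval 2.19 to 2.95, edgeR's adjusted p = 7.15e-07), a 5.94-fold higher level, in a gene of low abundance.

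Its neighbour Cdkn2a, at chr4:89192708-89212890 on the same strand, encodes p16Ink4a, another inhibitor of Cdk4 and Cdk6, and from a separate first exon p19Arf, which stabilises p53. The gene was at 78.9, 83.0 and 89.7 TPM in BALB/c and at 181, 183 and 178 TPM in C57BL/6. Its difference was 1.26 ± 0.06 (log2, SE, edgeR's adjusted p = 2.63e-07). The transcripts moved unequally. The p16Ink4a transcript was at 37.2, 43.1 and 46.3 TPM in BALB/c and at 131, 125 and 122 TPM in C57BL/6, a ratio of means of 2.98. The p19Arf transcript was at 41.7, 39.8 and 43.4 TPM against 49.7, 57.8 and 56.8 TPM, a ratio of means of 1.31. p16Ink4a thus made up 47.1% to 52.0% of the TPM of the gene in BALB/c and 68.2% to 72.5% in C57BL/6, and the ranges did not overlap for either transcript. These transcript values are a description without a test, and they rest on how Salmon split the reads of the shared exons.

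**Figure D2:**
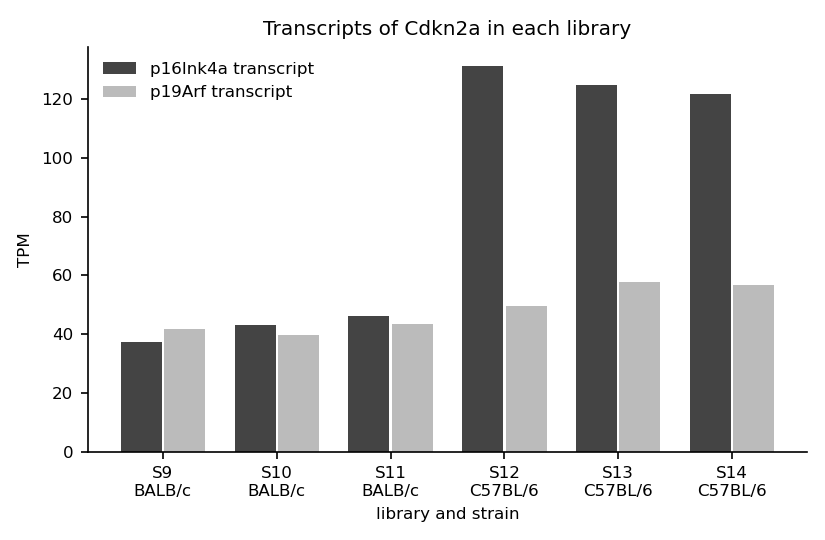
TPM of the p16Ink4a transcript (dark bars) and the p19Arf transcript (light bars) of Cdkn2a in each library. The bars of a library are close in BALB/c, and the dark bars are more than 2 times the light bars in S12, S13 and S14.

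Cdkn1a (p21, a Cip/Kip inhibitor and a target of p53) was the most abundant inhibitor, at 315, 297 and 296 TPM in BALB/c and 465, 422 and 416 TPM in C57BL/6. It was higher by 0.70 ± 0.04 (log2, SE, adjusted p = 1.71e-06). Cdkn1b (p27), of the same family, went the other way, from 36.8, 40.6 and 36.2 TPM to 19.9, 18.2 and 20.8 TPM, and fell by 0.77 (SE 0.06, adjusted p = 5.59e-06). In neither gene did a library of one strain reach the range of the other, and the ratio of the Cdkn1a to the Cdkn1b level was 8.02 ± 0.636 in BALB/c, against 22.2 ± 1.89 in C57BL/6 (SD, n = 3).

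Cdkn2c (p18Ink4c) and E2f8, an E2F factor, had the largest decreases of the 50 genes in edgeR's fit, and they differed from each other by less than their SE. Bub1, with a decrease of 0.93 (SE 0.08), lay within its SE of both. Cdkn2c was at 45.3, 43.7 and 39.6 TPM in BALB/c and at 20.6, 17.8 and 21.6 TPM in C57BL/6, and fell by 0.95 (log2, SE 0.07, adjusted p = 3.48e-06). Cdkn2d (p19Ink4d) fell by 0.63 (SE 0.05), from 155 ± 5.14 TPM to 88.4 ± 6.74 TPM (SD, n = 3). The INK4 family therefore held 2 genes that rose and 2 that fell, and the summed TPM of these 4 genes was 284 ± 4.59 in BALB/c and 305 ± 6.60 in C57BL/6. This sum counts the p19Arf transcript of Cdkn2a, which does not encode an INK4 inhibitor, at a mean of 41.6 TPM in BALB/c and 54.8 TPM in C57BL/6. Cdkn2a made up more of that sum than Cdkn2d in each C57BL/6 library, and Cdkn2d more than Cdkn2a in each BALB/c library. The summed TPM of all 6 inhibitor genes, p19Arf again included, was 625 ± 8.51 against 759 ± 30.3.

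**Figure D3:**
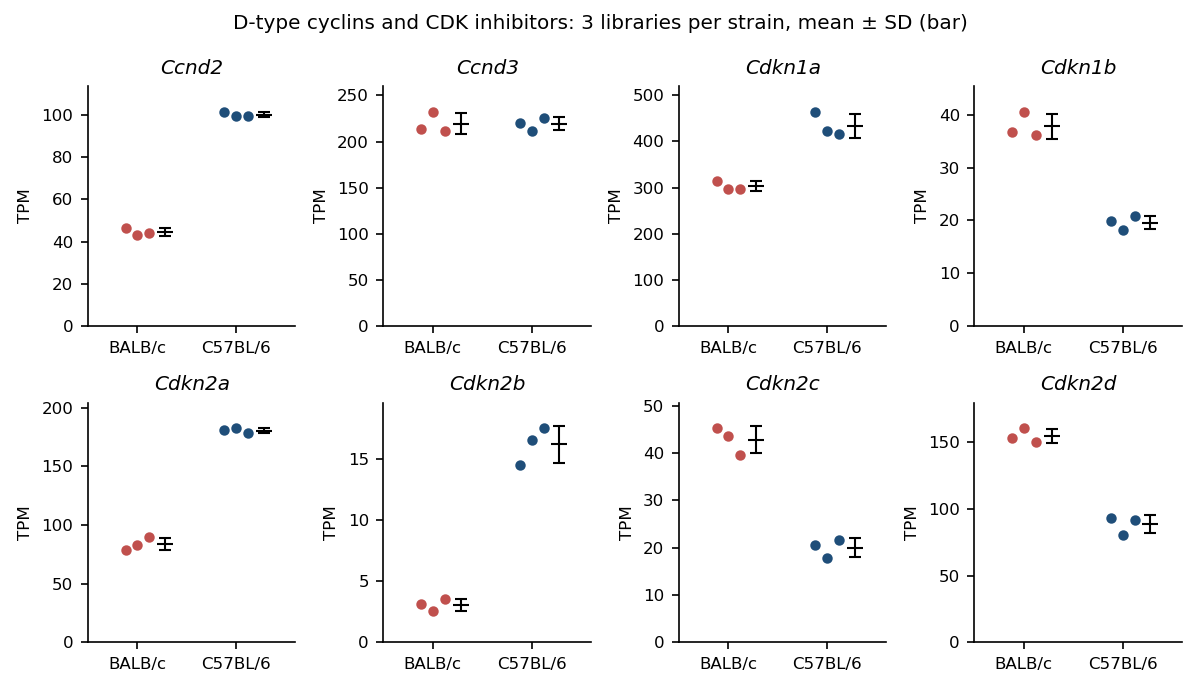
TPM of 2 D-type cyclins and the 6 CDK inhibitors, with 1 point per library and the mean ± SD of each strain beside the points (n = 3); every axis starts at 0. Ccnd2, Cdkn1a, Cdkn2a and Cdkn2b are higher in each C57BL/6 library, Cdkn1b, Cdkn2c and Cdkn2d are lower, and Ccnd3 overlaps.

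All 5 E2F factors and pocket proteins were lower in C57BL/6. E2f8, an E2F factor that represses its targets late in S phase, was at 34.4, 31.7 and 30.2 TPM in BALB/c and at 14.9, 14.5 and 15.2 TPM in C57BL/6. It fell by 0.94 (log2, SE 0.05, edgeR's adjusted p = 3.70e-07), and the libraries of C57BL/6 were nearly equal. E2f2, an activating factor, fell by 0.71 (SE 0.10) at a low level, 5.73 ± 0.565 TPM against 3.03 ± 0.308 TPM. E2f1, the other activator, differed least, by -0.19 ± 0.05 (adjusted p = 0.0148), and lost its call without S12 (adjusted p = 0.0592) and without S14 (adjusted p = 0.052). Rb1, the retinoblastoma protein and the most abundant of the 5, was at 157, 162 and 164 CPM against 142, 135 and 132 CPM and fell by 0.24 (SE 0.04). Its relative Rbl1 (p107), itself made mainly in dividing cells, fell by 0.42 (SE 0.06), and by 0.18 over curated transcripts alone (adjusted p = 0.185).

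Of the 10 genes of origin licensing and the helicase, 9 fell and 1 did not pass the test. Licensing loads the ring of Mcm2 to Mcm7 onto origins with the help of Cdc6 and Cdt1, and the GINS proteins later activate it. Mcm3, the most abundant of them, was at 120, 113 and 112 TPM in BALB/c and at 84.3, 78.1 and 83.9 TPM in C57BL/6, and fell by 0.31 (log2, SE 0.04). Mcm5 fell by 0.70 (SE 0.04, edgeR's adjusted p = 4.83e-07) and Mcm7 by 0.67 (SE 0.03, adjusted p = 5.00e-07), the steepest of the ring, followed by Mcm2 (0.55) and Mcm4 (0.38). The C57BL/6 libraries of these 5 genes all lay below the BALB/c libraries.

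Mcm6, which sits in the same ring, differed from its partners. It was at 164, 164 and 169 CPM in BALB/c, against at 174, 156 and 170 CPM in C57BL/6. The C57BL/6 range enclosed that of BALB/c, and the difference was 0.01 ± 0.05 (log2, SE, 95% interval -0.12 to 0.13, adjusted p = 0.936). In TPM it was at 84.4, 83.3 and 84.1 against 78.9, 67.6 and 76.0, and every C57BL/6 library lay below those of BALB/c. The sign of the fitted difference changed with the setting, and with plain library size it was -0.14 (adjusted p = 0.0391). The ratio of the Mcm6 to the Mcm7 level in TPM was 0.761 ± 0.0166 in BALB/c, against 1.21 ± 0.0703 in C57BL/6 (SD, n = 3), and the summed TPM of the 6 ring genes was 497 ± 13.4 against 329 ± 12.2. Cdc6 fell by 0.67 (SE 0.07), Cdt1 by 0.53 (SE 0.07), and Gins1 and Gins2 by 0.44 and 0.44 (SE 0.09 and 0.07).

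At the fork, 3 of 4 genes fell. Rrm1 and Rrm2, the subunits of ribonucleotide reductase, fell by 0.33 and 0.48 (log2, SE 0.05 each), and Tyms, which makes thymidylate, fell by 0.27 (SE 0.04). Pcna, the sliding clamp of the polymerases, had the highest TPM of the 4. In CPM it was 246, 248 and 255 in S9, S10 and S11, against 244, 244 and 237 in S12, S13 and S14. The strains did not overlap but lay close together, and the difference of -0.05 ± 0.04 did not pass the test (95% interval -0.15 to 0.05, edgeR's adjusted p = 0.313). It did pass with plain library size (-0.19) and on log2(TPM + 1) (-0.23), settings under which the median of all genes was lower. In TPM, Pcna was at 327, 325 and 329 against 288, 276 and 275.

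All 11 genes of the spindle checkpoint, the mitotic kinases and the spindle were lower in C57BL/6, with a median log2 difference of -0.69. Their summed level was 1008, 939 and 973 CPM in S9, S10 and S11, against 665, 626 and 688 CPM in S12, S13 and S14. Bub1, a kinase of the spindle checkpoint, was at 16.8, 15.1 and 17.0 TPM in BALB/c and at 8.26, 6.53 and 7.97 TPM in C57BL/6. The strains did not overlap, and Bub1 fell by 0.93 (log2, SE 0.08, edgeR's adjusted p = 1.19e-05). Its checkpoint partners Bub1b and Mad2l1 fell by 0.69 and 0.61 (SE 0.05 and 0.04). Of the mitotic kinases, Aurka, which acts at the centrosome, fell by 0.83 (SE 0.07), Aurkb, which corrects kinetochore attachment, by 0.81 (SE 0.05), and Plk1, which acts from mitotic entry to exit, by 0.70 (SE 0.07).

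Birc5 (survivin, a partner of Aurkb) was the most abundant of the 11, at 150, 140 and 141 TPM in BALB/c and 86.0, 76.1 and 90.6 TPM in C57BL/6, and fell by 0.59 (SE 0.06). Kif20a, a kinesin of cytokinesis, fell by 0.70 (SE 0.05), Tpx2, an activator of Aurka, by 0.48 (SE 0.05) and Cenpa, the histone H3 variant of centromeres, by 0.45 (SE 0.04). Kif11, the kinesin that separates the spindle poles, differed least, by -0.14 ± 0.05 (adjusted p = 0.0297), and its call was lost under 6 of 19 alternatives, among them without S9, S12, S13 or S14 (adjusted p of 0.0761, 0.0698, 0.117 and 0.0524).

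Both proliferation markers were lower in C57BL/6, although Mki67 was not over curated transcripts alone. Top2a, the topoisomerase that untangles sister chromatids, was at 123, 115 and 115 TPM in BALB/c and at 73.3, 64.1 and 71.1 TPM in C57BL/6, and fell by 0.59 (log2, SE 0.04, edgeR's adjusted p = 5.68e-06). Mki67, the gene of the Ki-67 antigen, was at 505, 519 and 383 CPM in BALB/c, against at 364, 331 and 337 CPM in C57BL/6. Library S11 stood nearer to C57BL/6 than to the other BALB/c libraries. Mki67 fell by 0.45 (SE 0.10, adjusted p = 0.00519) over all transcripts, but the difference was 0.14 (adjusted p = 0.733) over curated transcripts alone. The curated transcript of Mki67 was at 27.8, 29.5 and 12.3 TPM in BALB/c and at 23.7, 22.3 and 21.5 TPM in C57BL/6, and the predicted transcript held 62.2% to 78.5% of the TPM of the gene in BALB/c and 47.0% to 51.8% in C57BL/6.

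The libraries of a strain were close for these genes, with a median coefficient of variation of 4.53% in BALB/c and 4.58% in C57BL/6, beside 6.18% and 5.03% over all genes tested. The small spread had a common direction. S9 was the highest BALB/c library in 29 of the 50 genes and S10 the lowest in 30, whereas 34.7% and 33.0% of all genes were highest and lowest in those libraries. In C57BL/6, S14 was the highest in 25 genes and S13 the lowest in 26, beside 32.4% and 33.7% of all genes. The strain difference was larger than these shifts, since the median deviation of the 50 genes from the strain mean was between -0.04 and 0.04 (log2) in every library.

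**Figure D4:**
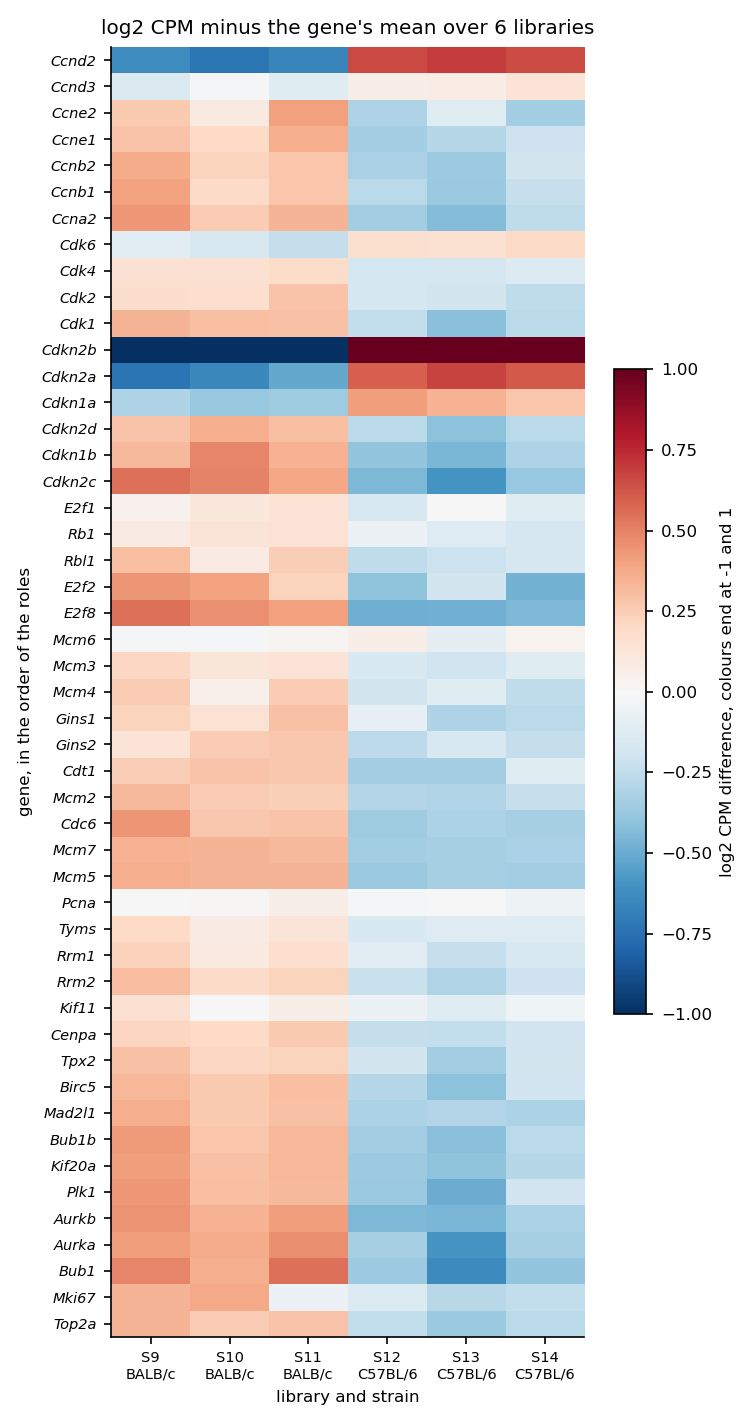
Log2 CPM of each gene in each library minus the mean of the gene over the 6 libraries, in colour (red is higher, blue is lower, and colours end at -1 and 1), in the order of the roles and without Ccnd1. The columns of a strain are alike, most genes are red in S9, S10 and S11 and blue in S12, S13 and S14, and Ccnd2, Ccnd3 (on this scale, not in TPM), Cdk6, Cdkn1a, Cdkn2a and Cdkn2b show the reverse.

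Other genes of the same machinery, 166 in 6 lists, were also mostly lower in C57BL/6. Of the 162 tested, 131 were lower in C57BL/6 (80.9%, beside 25.9% of all genes tested), 4 were higher (2.47%, beside 27.0%) and 27 did not pass the test, the median log2 fold change being -0.47. The list of kinetochore, spindle, condensin and cytokinesis genes was lower throughout: all 52 passed the test, with a median of -0.64, and Cep55, which acts at the last cut between daughter cells, fell by 1.001 (SE 0.07), from 51.3 ± 4.57 to 25.6 ± 1.62 CPM (SD, n = 3). Of 30 genes of the polymerases, the clamp loader and the fork, 27 fell and 3 did not pass the test, and Tk1, an enzyme of thymidine salvage, fell by 0.73 (SE 0.06). Of 20 genes of origin recognition and licensing, 13 fell and 1 rose, and Orc1, the origin recognition subunit that is made anew in each cycle, fell by 1.20 (SE 0.11).

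The anaphase-promoting complex and checkpoint list held 14 genes that fell and 1 that rose of 23 (60.9% and 4.35%, beside the same shares of all genes). Pttg1 (securin) fell by 1.19 (SE 0.07), the checkpoint kinase Ttk by 1.16 (SE 0.06) and Fbxo5, an inhibitor of the anaphase-promoting complex, by 1.01 (SE 0.06), from 36.8 to 16.2, 33.7 to 15.1 and 35.2 to 17.5 CPM in the strain means. Of 16 E2F, pocket protein and DREAM genes, 13 fell (81.2%), among them Foxm1 (0.69, SE 0.07), an activator of mitotic genes, and E2f7 (0.58, SE 0.11), the close relative of E2f8. Of 21 other cyclins, kinases and regulators, 12 fell (57.1%) and 2 rose in edgeR's fit, Ccng1 (0.19 ± 0.05) and Ccnh (0.15 ± 0.05), although in TPM Ccng1 overlapped and Ccnh was lower in every C57BL/6 library, and Ccnf fell by 0.81 (SE 0.07).

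**Figure D5:**
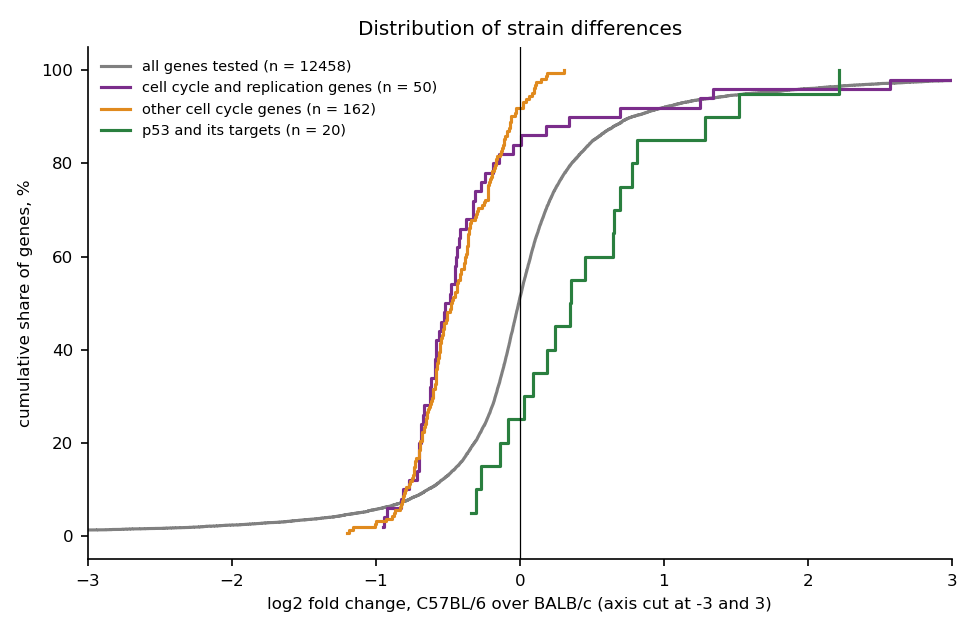
Cumulative share of genes by log2 fold change, C57BL/6 over BALB/c, for all 12458 genes tested (grey), the 50 cell cycle and replication genes (purple), 162 other cell cycle genes (orange) and 20 genes of the list of p53 and its targets (green); both tails are cut off. At 0 on the horizontal axis the purple and orange curves lie above the grey one, with more genes lower in C57BL/6, and the green curve lies below it.

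Cdkn1a is also a target of p53, so a list of p53 and its other targets was read beside it. Of 20 tested, 1 of which (Ccng1) is also in a list above, 13 were higher in C57BL/6, 3 were lower and 4 did not pass the test (65% higher and 15% lower, beside 27.0% and 25.9% of all genes tested), the median log2 fold change being 0.35. Btg2, an antiproliferative gene, rose by 2.22 ± 0.15 (log2, SE), from 10.7 ± 1.54 to 49.7 ± 10.2 CPM (SD, n = 3), and Pmaip1 (Noxa, a death-promoting BH3 protein) by 1.53 ± 0.15. Eda2r, a receptor of the TNF receptor family, rose by 1.28 ± 0.31 at a low level, 1.01 ± 0.468 to 2.50 ± 0.275 CPM. Trp53 itself was at a mean of 163 CPM in BALB/c, against 167 CPM in C57BL/6, a difference of 0.03 ± 0.04 (adjusted p = 0.546).

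Markers of other cells also differed between the strains. The 8 basophil markers summed to 406 to 418 CPM in BALB/c, against 512 to 523 CPM in C57BL/6. Of these, 5 were higher and 1 lower (62.5% and 12.5%, beside 27.0% and 25.9% of all genes tested). The other 2 did not pass the test. Mcpt8 (84.0 against 183 CPM) and Cebpa (0.104 against 9.71 CPM) were among the higher ones, and Mcpt8 made up most of the rise of the sum. The markers moved in both directions. The lowest log2 fold change of the list was -0.54, and in CPM 2 of the 8 were lower in C57BL/6 without overlap. The 8 macrophage markers summed to 0.705 to 1.63 CPM against 13.3 to 13.9 CPM, of which Adgre1 and Cd68 made up nearly all, and Csf1r, C1qa, C1qb and C1qc were at 0. The 10 markers of early progenitors summed to 1114 to 1217 CPM in BALB/c, against 890.3 to 967 CPM in C57BL/6, where Cd34 (773 against 738 CPM) and Ctsg (360 against 147 CPM), which mast cells also express, held most of the sum, Meis1 was at 38.3 against 29.2 CPM, Mecom, with the largest change of the list, was higher in C57BL/6 (1.39 against 8.37 CPM), and Elane and Hoxa9 were at 0 in all libraries. The 6 erythroid markers summed to at most 0.534 CPM in BALB/c, against 6.19 CPM in C57BL/6, and Hbb-bt alone, with 0 reads in every BALB/c library and a mean of 5.93 CPM in C57BL/6, made up nearly all of the latter. Only Hbb-bt, 1 of these 6, passed the filter on low counts, so that the difference rests on a single gene. Whether Hbb-bt stands for erythroid content in both strains was not tested. The part of the markers of other cells in the differences of the cell cycle genes was not tested.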

How the data were processed

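RNA of BMMCs was analysed in 6 libraries, 3 of BALB/c and 3 of C57BL/6. Per the labels, strand-specific mRNA libraries were made, and the authors checked reads with FastQC 0.11.5 and assigned them to transcripts with Salmon 0.8.2, for which their processing notes name GRCm39 (mm39). The deposited tables give an estimated count of reads per RefSeq transcript, and the deposited TPM values divide these by effective length and scale each library to the same total. The deposited transcript lengths and effective lengths were used for the length offset. The reference transcripts are of one strain, and any effect of strain variants on read assignment was not tested.

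Of 129698 transcripts, 106430 (82.1%) were matched to 35293 genes through RefSeq names of GRCm38.p6, and 2.69% to 3.12% of reads lay on the others, which were dropped. Sums of the estimated counts per gene were rounded, and TPM were likewise summed. Strains were compared with edgeR 4.0.16 (R 4.3.3), by the quasi-likelihood test with TMM factors (0.940 to 1.05), a filter at a minimum count of 10 and Benjamini-Hochberg adjustment over 12458 genes. A positive log2 fold change is higher in C57BL/6, CPM use TMM-corrected library sizes, and 95% intervals take 4 degrees of freedom. Past both thresholds means an adjusted p under 0.05 and a change above 2-fold. The biological coefficient of variation was 0.0665. With 28271211 reads or more on genes in each library, the number of libraries limits the precision except for genes of few reads such as Ccnd1, whose exact interval covers counting error only. With 3 against 3 libraries, an exact permutation test of 1 gene cannot give a p below 0.1. Tested on simulated data (12458 genes with a common spread, a 4-fold change put into 200), the fit of edgeR found 199 of them past both thresholds, DESeq2 198 and limma 172, each with 0 false calls. Limma was run there on CPM and not on TPM. The simulation does not show how often smaller changes are found, or how often calls by adjusted p alone are false.

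Alternatives were DESeq2 1.42.0 with and without a length offset, edgeR with that offset, other size factors, other filters, log2(TPM + 1) and log2(TPM + 0.1) tested with limma 3.58.1, curated transcripts alone, unmatched transcripts kept, reads summed with near-identical copies, and each library left out in turn. Copies were sought by shared words of 31 bases (at least 25% shared) in GENCODE transcripts of GRCm39, which also gave the gene positions, and of the copies found only Tyms-ps had a row, with at most 1 read. Other pseudogenes of Ccnb1, Ccnd3, Cdc6, Cdk6, Mcm7, Mki67, Pcna and Rrm2 share sequence and have no row in the matched tables, so their reads, if any, would count to these genes.

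Genes with values in every library were those past both thresholds, the 3 largest changes in each direction and the highest TPM of each role, and further ones (Ccna2, Cdk6, Cdkn1b, Mcm6, Mki67) were chosen after their values were seen. Of other lists, at most 4 genes each were named by size of change. Not every gene so chosen is reported here. The members and lists were chosen with earlier results of these data known. The lung samples, RT-qPCR and protein assays of the study were not analysed here.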

Additional observations from a re-analysis of the deposited data

How the results depend on the processing

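Of the 50 genes, 41 kept their direction and their side of the threshold under all of the 19 alternatives that gave them a value; Ccnd1 had none with 10 counts required in every library or without S14. The number of genes that fell past both thresholds, 0 in the main setting, was 3 with plain library size, 3 on log2(TPM + 1), 4 on log2(TPM + 0.1) and 1 with curated transcripts only, the first 3 being settings under which the median of all genes lay at -0.15, -0.15 and -0.18. Ccnd3 reversed to -0.00026 on log2(TPM + 1) and -0.00026 on log2(TPM + 0.1) and lost its call with plain library size (0.04, adjusted p = 0.495). With curated transcripts only, Ccne2 reversed to 0.26 and Mki67 to 0.14. Mcm6, which had no call in the main setting, took a negative sign with upper-quartile factors (-0.016), plain library size (-0.14), no filter (-0.00085), a length offset in DESeq2 (-0.0011) or edgeR (-0.0020), on log2(TPM + 1) (-0.18) and log2(TPM + 0.1) (-0.18) and with unmatched transcripts kept (-0.0023), and lay between -0.025 and 0.052 with a library left out. Mcm6 passed the test as lower with plain library size. Pcna passed the test with plain library size and on both TPM scales. Cdk6, E2f1, Rbl1 and Kif11 kept their direction and lost their call under 1, 2, 1 and 6 alternatives. Beyond what each setting removes, the cause was not tested. No paired analysis was possible because the strains share no replicate numbers. Depth limits Ccnd1 most, with 39 reads in all.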

Other observations

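Genes of the Myc network and of the early growth response were looked up beside the cell cycle genes. Of 9 genes of the Myc network tested, 4 were higher, 2 lower and 3 did not pass edgeR's quasi-likelihood test at the adjusted p, that is, 44.4% higher and 22.2% lower, beside 27.0% and 25.9% of all genes tested, and the median log2 fold change was 0.10. Mycn rose by 0.98 ± 0.07 (SE), from 19.9 ± 0.837 to 39.2 ± 3.71 CPM (SD, n = 3), and Mxd4, an antagonist of Myc, by 0.82 ± 0.06. Mxd3, another antagonist and one that is made in S phase, fell by 0.96 (SE 0.09), and Mxi1 by 0.33 (SE 0.08). Myc itself was at a mean of 292 CPM in BALB/c, against 310 CPM in C57BL/6, with a difference of 0.09 ± 0.05 (adjusted p = 0.153).

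Of 14 genes of the early growth response, 8 were higher in C57BL/6, 3 were lower and 3 did not pass the test (57.1% higher and 21.4% lower, beside the same shares of all genes). Egr3 rose by 3.36 ± 0.23 (log2, SE), from 41.8 ± 13.3 to 428 ± 91.7 CPM (SD, n = 3), Egr2 by 2.26 ± 0.14, from 71.4 ± 14.3 to 342 ± 46.3 CPM, and Fosl1 by 3.20 ± 0.29 at a level of at most a few CPM. Fos fell by 0.90 (SE 0.14), from 1353 to 727 CPM in the strain means, so that members of this list moved in both directions.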
